A study of Mus musculus with 12 samples.

Results

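The sites described here are the places on mouse chromosomes 1 to 19 where TET2 was called bound in a myeloid culture immortalized with AML1-ETO. The deposited list for this culture held 19706 rows, of which 19411 lay on chromosomes 1 to 19, and 293 rows on chromosome X and 2 on chromosome Y were left out. Rows with 1 bp or more in common were joined, which gave 18533 sites of the 25311 merged sites in both lists of the series. The other list, from an acute myeloid leukemia (AML) culture, gave the remaining 6778 sites.

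TET2 is a dioxygenase that oxidises 5-methylcytosine in DNA, a step on the way to removing the methyl mark, and its gene is among those most often mutated in myeloid malignancies. It uses oxygen, iron and 2-oxoglutarate and has no CXXC domain of its own, the module with which TET1 and TET3 bind CpG-rich DNA. AML1-ETO is the fusion of the DNA-binding part of RUNX1 with the corepressor RUNX1T1 that arises from a translocation in acute myeloid leukemia, and it lets myeloid progenitors grow for long periods in culture.

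Chromatin immunoprecipitation (ChIP) of TET2 was sequenced in 12 libraries, 6 of them from the myeloid culture. Those 6 were 2 TET2 libraries from wild-type cells (genotype Tet2fl/fl; AML1-ETO), 2 TET2 libraries from knockout cells (Tet2-/-; AML1-ETO), 1 input and 1 IgG control, the latter pair both from Tet2fl/fl; AML1-ETO cells. All 6 carried the retroviral transgene MigR1-AML1-ETO, so every myeloid sample was a transduced line rather than normal marrow. The AML culture carried no transgene and had the genotype Npm1+/cA; Fl3+/ITD, spelled as the labels spell it, with Tet2-/- added in its 2 knockout TET2 libraries. It too had 2 wild-type TET2 libraries, 1 input and 1 IgG control. Both cultures grew in suspension with SCF at 50 ng/ml and with IL-3 and IL-6 at 10 ng/ml each. Cells were fixed with disuccinimidyl glutarate at 2 mM and formaldehyde at 1%, and sheared to 200 to 500 bp. Each precipitation used 1 µg of a rabbit antibody against the TET2 N-terminus with 300 µg of chromatin. The labels do not say whether same-group libraries came from separate cultures.

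Each deposited row gave a chromosome, a start and an end in mm10, with no height, score or value per library. A site is therefore present or absent in what follows, the spread between replicates is unknown, and the knockout label could not be checked at the sites. No wild-type against knockout comparison was made. The wild-type and knockout genotypes, the input and the IgG library enter through the authors' calls, and the sources used here do not say how. Read depth is unknown, and intervals below are exact 95% Clopper-Pearson intervals that treat sites as independent and cover counting error alone.

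The sequences in this paragraph and the next are promoter DNA from inside TET2 sites, shown because gene starts held the densest part of the list and because their letters differed from those of unbound starts. Each run is the 250 bases before a RefSeq gene start (GRCm38.p6, the RefSeq form of mm10), read 5′ to 3′ on the gene's strand. Capitals mark matches to 13 motifs searched on both strands: RUNX (TGTGGT), ETS (CCGGAAG), SP/KLF (GGGCGG), NRF1 (GCGCATGC), NFY (CCAAT), CRE/ATF (TGACGTCA), YY1 (AAGATGGC), E-box (CACGTG), AP-1 (TGANTCA), C/EBP (TTGCNNAA), STAT (TTCNNNGAA), IRF (GAAANNGAA) and the TATA box (TATAAA). A match is a run of letters and not a measured binding site of any factor. The first 4 are from 8 that a rule gave, drawn from list genes whose promoter window lay wholly inside a site. The rule took those with most different motifs first, so these runs do not show how many motifs a bound promoter usually holds. These 4 of the 8 were picked for their differing functions. They belong to Asxl2, a Polycomb-related chromatin regulator (chr12:3426607-3426856, plus strand), Irf2, an interferon regulatory factor (chr8:46739495-46739744, plus strand), Npc2, a lysosomal cholesterol carrier (chr12:84773113-84773362, minus strand), and Rpl27a, a protein of the large ribosomal subunit (chr7:109518945-109519194, plus strand).
Asxl2: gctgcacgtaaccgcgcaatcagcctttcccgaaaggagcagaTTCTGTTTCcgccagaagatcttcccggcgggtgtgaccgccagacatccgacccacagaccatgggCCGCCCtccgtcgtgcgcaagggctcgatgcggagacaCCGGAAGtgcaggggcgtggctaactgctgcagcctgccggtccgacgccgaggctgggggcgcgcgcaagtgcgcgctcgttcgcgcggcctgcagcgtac
Irf2: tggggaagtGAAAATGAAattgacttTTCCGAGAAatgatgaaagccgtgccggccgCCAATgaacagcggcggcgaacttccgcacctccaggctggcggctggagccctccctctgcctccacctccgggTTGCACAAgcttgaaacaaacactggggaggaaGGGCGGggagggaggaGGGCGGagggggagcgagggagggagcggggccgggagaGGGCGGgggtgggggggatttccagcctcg
Npc2: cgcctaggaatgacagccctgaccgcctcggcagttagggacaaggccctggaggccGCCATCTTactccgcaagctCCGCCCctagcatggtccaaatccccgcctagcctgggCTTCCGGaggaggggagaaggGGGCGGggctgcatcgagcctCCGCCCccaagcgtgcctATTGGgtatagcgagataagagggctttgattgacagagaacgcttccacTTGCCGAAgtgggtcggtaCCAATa
Rpl27a: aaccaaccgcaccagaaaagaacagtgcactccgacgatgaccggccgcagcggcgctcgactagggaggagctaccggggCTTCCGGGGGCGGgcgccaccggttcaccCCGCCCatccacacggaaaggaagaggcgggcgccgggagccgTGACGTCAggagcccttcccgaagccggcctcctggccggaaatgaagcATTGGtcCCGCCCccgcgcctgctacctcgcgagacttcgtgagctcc
The Asxl2 run had an IRF, an SP/KLF and an ETS match, and the 300 bp window held 36 CpG dinucleotides. The Irf2 run had IRF and STAT matches at its far end and 3 SP/KLF matches nearer the start. In Npc2 the ETS match stood between SP/KLF matches, and in Rpl27a an ETS and an SP/KLF match adjoined. Of these 4 sites, those at Asxl2 and Irf2 overlapped a site of the AML list.

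The next 5 were chosen after their values were seen, because the genes recur below. They are Tet2 itself (chr3:133544391-133544640, minus strand), the survival gene Mcl1 (chr3:95658471-95658720, plus strand), the blood progenitor factor Gata2 (chr6:88193641-88193890, plus strand), the myeloid factor Cebpa (chr7:35119043-35119292, plus strand) and the upstream promoter of Runx1 (chr16:92826075-92826324, minus strand).
Tet2: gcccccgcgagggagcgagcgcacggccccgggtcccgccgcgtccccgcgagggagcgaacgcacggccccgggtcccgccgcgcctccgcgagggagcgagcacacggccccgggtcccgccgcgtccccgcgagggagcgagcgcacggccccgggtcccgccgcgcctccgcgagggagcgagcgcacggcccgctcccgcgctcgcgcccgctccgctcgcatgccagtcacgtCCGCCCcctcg
Mcl1: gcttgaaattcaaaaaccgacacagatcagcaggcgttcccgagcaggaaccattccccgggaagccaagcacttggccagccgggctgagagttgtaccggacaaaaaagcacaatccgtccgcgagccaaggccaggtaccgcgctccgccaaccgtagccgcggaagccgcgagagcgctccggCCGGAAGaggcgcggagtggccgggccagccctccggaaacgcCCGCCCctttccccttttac
Gata2: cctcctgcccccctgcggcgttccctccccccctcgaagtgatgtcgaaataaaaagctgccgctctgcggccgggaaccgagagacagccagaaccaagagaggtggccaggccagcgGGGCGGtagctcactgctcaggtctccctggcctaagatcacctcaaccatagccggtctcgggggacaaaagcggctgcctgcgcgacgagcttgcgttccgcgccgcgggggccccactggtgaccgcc
Cebpa: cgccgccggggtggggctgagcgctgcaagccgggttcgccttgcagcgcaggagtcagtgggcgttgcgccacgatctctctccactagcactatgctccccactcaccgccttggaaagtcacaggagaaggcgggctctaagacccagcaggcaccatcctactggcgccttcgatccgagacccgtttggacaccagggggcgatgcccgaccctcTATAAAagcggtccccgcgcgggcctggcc
Runx1: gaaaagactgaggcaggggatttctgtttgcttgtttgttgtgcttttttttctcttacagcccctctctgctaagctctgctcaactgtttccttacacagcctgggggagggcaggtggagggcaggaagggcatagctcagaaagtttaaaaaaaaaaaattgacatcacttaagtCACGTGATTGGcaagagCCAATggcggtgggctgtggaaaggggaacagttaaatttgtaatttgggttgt
Among the 9 promoters shown the 300 bp window of Tet2 was the most GC-rich, with 81.3% G or C and 57 CpG. Mcl1 had an ETS and an SP/KLF match and 33 CpG, and Gata2 had 1 SP/KLF match and 32 CpG. The Cebpa run carried a TATAAA match and its window 29 CpG. The Runx1 window stood at the other end of the range with 2 CpG and 45% G or C. Its run carried a CACGTG and CCAAT matches in both orientations. Of these 5 sites, the Runx1 site alone overlapped the AML list.

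Gene starts held 20.1% of the sites and the rest of the list lay mostly inside genes or between them. With a site placed by its midpoint, 3730 sites were within 1 kb of a gene start (20.1%, 19.6 to 20.7), where a start is the 5′ end of a protein-coding gene or any listed start of one. Another 281 sites (1.52%, 1.35 to 1.70) were within 1 kb of a 3′ end, and 703 (3.79%) were at an end of a gene whose strand was not listed. Gene bodies held 7221 sites (39.0%, 38.3 to 39.7) and intergenic sequence 6598 (35.6%, 34.9 to 36.3). Strand came from the RefSeq promoter table, which covered 16456 of 20661 protein-coding genes (79.6%) and none on chromosome 18. The share at gene starts therefore misses starts of the other 4205 genes.

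Sites were narrow and of even width. The median site spanned 710 bp, with quartiles of 666 and 779 bp, and all sites together covered 13.9 Mb. Sites at gene starts were a little wider, with a median of 735 bp against 704 bp in gene bodies and 705 bp between genes. Most sites, 17698, came from 1 row, 795 from 2 rows and 40 from 3 or more. The 5 widest sites lay near Gm20783 on chromosome 9 (3605 bp, 4 rows), in Mdga1 on chromosome 17 (2618 bp), near Ppp2r5a on chromosome 1 (2450 bp), at the Gata2 start on chromosome 6 (2338 bp) and near Wdr81 on chromosome 11 (2137 bp).

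Around gene starts the midpoints piled up just before the start. In 200 bp bins the highest held 1407 midpoints, in the bin from -200 to 0 bp, against a median of 51.5 in bins 3 to 4 kb away, a 27.3-fold difference. Within 1 kb, 1939 midpoints were upstream and 1643 downstream. From 1 to 2 kb the order was the other way, with 320 upstream and 431 downstream. Around 3′ ends there was no such peak: the highest bin held 81 midpoints, between 2400 and 2600 bp past the end, the lowest held 28 and the median bin 3 to 4 kb away held 58.

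**Figure D1:**
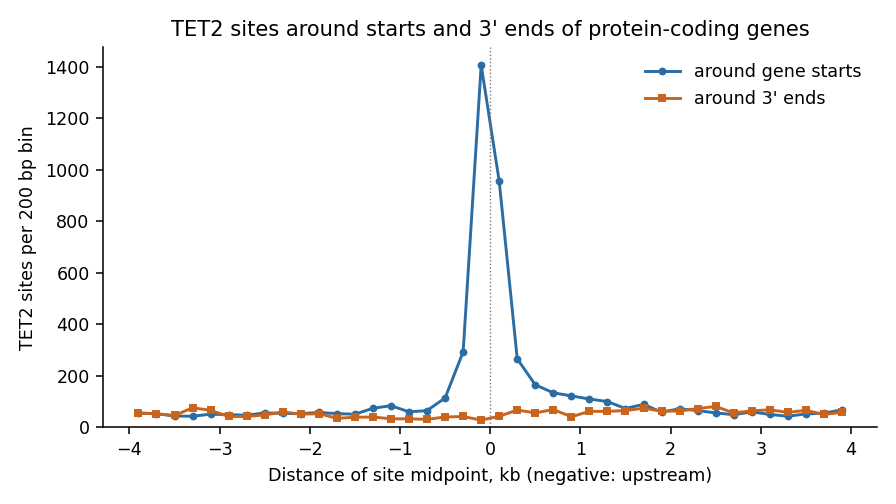
TET2 site midpoints per 200 bp bin (vertical axis, number of sites) by distance in kb from gene starts (blue circles) and from 3′ ends (orange squares) of protein-coding genes with a listed strand, with negative distances upstream. The start profile reaches 1407 sites in the bin just before the start, while the profile around 3′ ends stays between 28 and 81.

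The list was set against promoter windows, the 300 bp from 250 bases before to 50 after each listed start. Of 20084 windows 3972 (19.8%) overlapped a TET2 site by at least 1 bp, and 3378 (16.8%) lay wholly inside one. Counted by gene, 3474 of 16456 genes with a window (21.1%) had such a promoter. Bound windows were richer in CpG, the dinucleotide at which vertebrate DNA is mostly methylated: their median was 24 CpG against 10 in unbound windows, and their median GC content was 62.7% against 55.0%. The share bound went up from class to class of CpG number. It was 2.15% of 884 windows with no CpG, 2.58% with 1 to 2, 6.17% with 3 to 5, 9.43% with 6 to 10, 19.5% with 11 to 15, 27.5% with 16 to 20, 34.8% with 21 to 30 and 35.9% with 31 to 67. The first 2 classes had overlapping intervals, as did the last 2. There were 499 bound windows with at most 10 CpG, the upstream Runx1 promoter printed above among them.

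**Figure D2:**
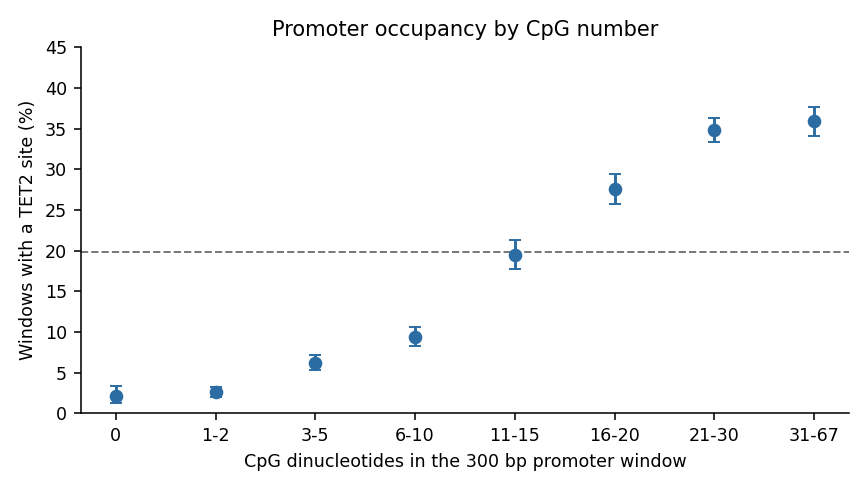
Share of promoter windows with a TET2 site (vertical axis, percent) by the number of CpG dinucleotides in the 300 bp window (horizontal axis, classes); points are shares, bars are exact 95% intervals and the dashed line is the share of all windows, 19.8%. The share goes from 2.15% in windows without CpG to 35.9% in those with 31 to 67.

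Of the 13 motifs, the ETS letters CCGGAAG went with the highest share of bound windows. ETS factors are a family that includes PU.1, FLI1, ERG and GABP. The motif was in 11.9% of all windows, and 45.7% of those (43.7 to 47.7) held a TET2 site, against 16.3% of windows without it. The difference was there at both levels of CpG: 49.1% against 26.7% among windows with over 10 CpG, and 17.4% against 5.29% among the rest. Mcl1, Npc2, Asxl2 and Rpl27a, printed above, are windows of this kind.

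The other motifs showed smaller differences. SP/KLF letters, in 47.0% of all windows, gave 29.2% bound against 11.4% without, but among windows with over 10 CpG the shares were close, 32.0% against 27.8%. The same comparison over all windows gave 36.0% against 19.2% for NRF1 (in 3.55% of windows), 32.7% against 19.5% for CRE/ATF (2.30%), 30.8% against 19.4% for YY1 (3.06%) and 28.7% against 19% for the E-box (7.89%). Above 10 CpG these gaps were smaller. They were 37.3% against 30.5% for NRF1 and 36.5% against 30.7% for CRE/ATF. For YY1 they were 36.9% against 30.6%, and for the E-box 33.9% against 30.6%. At 10 CpG or fewer YY1 turned, with 4.35% against 5.65%, while the others kept their order. RUNX letters, which the AML1-ETO fusion can also recognise, were in 14.8% of windows and gave 18.2% against 20.1%. Within CpG classes that order turned, with 35.8% against 30.4% above 10 CpG and 7.64% against 5.11% below. C/EBP letters (10.3% of windows) behaved alike in number: 17.8% against 20.0% over all windows, 36.5% against 30.5% above 10 CpG and 7.76% against 5.26% below.

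Some motifs went with fewer bound windows. The TATA box, in 12.7% of windows, gave 8.26% bound against 21.5%, and 25.4% against 31.2% above 10 CpG. AP-1 letters (7.06% of windows) gave 12.8% against 20.3%, IRF (8.08%) 15.5% against 20.2%, STAT (7.78%) 16.5% against 20.1% and NFY (38.1%) 17.8% against 21.0%. For AP-1, IRF and STAT the gap within CpG classes was under 2 percentage points. These are shares of windows that share base composition, and no motif was tested for binding.

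**Figure D3:**
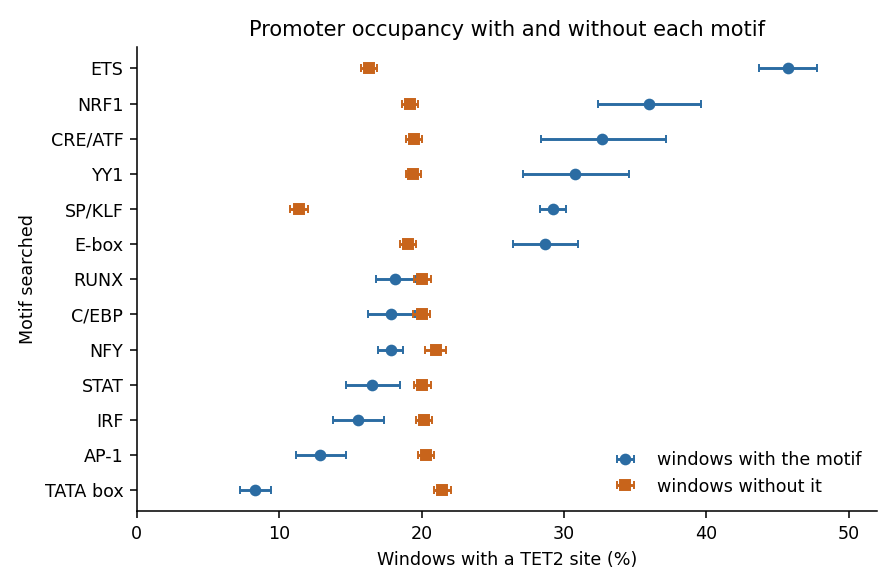
Share of promoter windows with a TET2 site (horizontal axis, percent) among windows that hold each motif (blue circles) and windows that do not (orange squares); bars are exact 95% intervals. ETS stands highest at 45.7% and the TATA box lowest at 8.26%.

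Promoters that stand back to back were bound more often. Among 1648 windows whose start lay within 1 kb of a start on the other strand, 705 held a site (42.8%, 40.4 to 45.2), against 17.7% of the other 18436. Above 10 CpG the shares were 45% and 28.7%. The same site can reach both windows of such a pair, so these windows are not independent. The part of this in the difference was not tested. Where a gene had listed starts more than 1 kb apart, as 1443 genes did, the most upstream window alone was bound at 230 genes, the most downstream alone at 123, both at 46 and neither at 1044. The upstream windows had a median of 14 CpG and the downstream ones 6. Runx1 went against that base composition: its upstream window with 2 CpG was bound, and its downstream window with 35 CpG, 128.745 kb away, was not. Both listed Gata2 windows were bound, and at Ikzf1 and Gfi1, regulators of lymphoid and myeloid choice, the upstream window alone was.

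The AML list shared a minority of the sites, and those lay mostly away from gene starts. Of the 18533 sites 4865 (26.3%, 25.6 to 26.9) overlapped an AML site, and 13668 were in the myeloid list alone. The AML list held 6778 sites, and this shorter length limits how many of the 18533 could be shared. The share of the AML list that overlapped this list was not worked out. Among sites at gene starts 390 (10.5%, 9.49 to 11.5) were shared, against 30.1% in gene bodies and 32.5% between genes. Put the other way, 8.02% of shared sites and 24.4% of myeloid-list-alone sites were at gene starts, an odds ratio of 0.270 (0.241 to 0.301; two-sided Fisher's exact test, Benjamini-Hochberg adjusted p = 2.32e-152). Shared sites were more often in gene bodies, 44.6% against 37.0% (odds ratio 1.37, 1.28 to 1.47, Fisher's exact adjusted p = 1.64e-20), and between genes, 44.1% against 32.6% (1.63, 1.53 to 1.75, Fisher's exact adjusted p = 9.81e-46). At 3′ ends the shares were 1.44% and 1.54%, and the interval of the odds ratio ran from 0.699 to 1.23 (Fisher's exact adjusted p = 6.33e-01). The 5 tests were adjusted together. The location classes add up to all sites, so a lower share at gene starts goes with higher shares elsewhere. The gene body and intergenic differences are therefore not separate results from the one at gene starts. Neighbouring sites are not independent, which makes these p-values too small. Shared sites were also wider, with a median of 758 bp against 695 bp, and the part of list length, signal strength and width in these differences was not tested.

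Each site was then given to the protein-coding gene with the nearest end, if within 100 kb. The median distance from a site to a gene end was 9.72 kb, 16881 sites were assigned and 1652 (8.91%) lay beyond the limit. At least 1 site was given to 8588 of 20661 protein-coding genes (41.6%), here called occupied. Of these genes 4702 had 1 site, 1927 had 2 and 896 had 3, while 613 genes (2.97%) had 5 or more and held 3837 sites, 22.7% of those assigned. A site lay within 1 kb of the start of 3929 genes with a listed strand, and 3350 such genes were occupied away from the start alone. Since long genes and genes in open country collect sites, each gene's count is set beside the number its territory would receive if the assigned sites were spread evenly, called expected below.

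The 10 genes with most sites were led by Runx1, the gene whose product supplies the DNA-binding part of AML1-ETO. Runx1 (chromosome 16, 92601466 to 92826074, minus strand) had 14 sites against 3.59 expected, and 8 of them were shared with the AML list. Ptpre, a receptor-type tyrosine phosphatase, had 13 against 1.68 expected. Gcnt2, Rbms1, Rin3, Zfp217 and Zfp608 had 12 each, and Atp8b4, Cebpb and Cmip had 11, as did 5 more genes that the tie by symbol left out, Zfp36l2 among them. These fell into different patterns. At Ptpre, Rbms1, Rin3 and Cmip the sites lay inside genes (10, 10, 10 and 9 sites). At Zfp217, a zinc finger protein amplified in tumours, 11 of 12 were intergenic, and at Cebpb all 11 were.

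The 10 genes with the highest ratio of sites to expected sites, among those with at least 5, included short genes of cytokine and complement signalling. Midn led with 5 sites against 0.177 expected, and Socs1, the feedback inhibitor of JAK-STAT signalling, followed with 6 against 0.244. The Socs1 gene spans 1.73 kb. Its sites lay at -0.97 kb from the start, at 2 places around the 3′ end, and at 10.5, 13.2 and 16.6 kb past the start, and none was shared. C5ar1, the receptor for complement fragment C5a, had 5 sites against 0.221 expected in or beside its 12.8 kb gene, 4 of them shared with the AML list. Mcl1, an anti-apoptotic BCL-2 relative that myeloid cells depend on, had 5 against 0.274: the promoter site printed above and 4 at -3.13, -4.49, -6.15 and -11.5 kb from the gene's outermost 5′ end. Adora3, an adenosine receptor, had 6, all outside its own 4.51 kb and inside the bodies of other genes. Fosb had 5 and Dgkz, a diacylglycerol kinase, had 8 against 0.510. Gm46294, Mfsd13a and Trim8 completed the group with ratios of 21.2, 19.5 and 16.0.

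The identity of the culture was set against marker genes. Of 12 myeloid markers 11 were occupied, where 41.6% of all genes were, with 33 sites against 6.34 expected, and Elane, neutrophil elastase, was the one without a site. Of 6 T and NK cell markers 1 was occupied, Ncr1 with 1 site, where 4.69 sites would be expected, while a longer list of T and NK cell genes, described below, had 8 of 15 genes occupied. Erythroid and megakaryocyte markers had 1 site in 6 genes, at the Itga2b start, with 0.780 expected, and the longer list of such genes had 5 of 14 genes occupied. Mast cell and basophil markers were occupied in 5 of 6 genes, with 14 sites against 5.16 expected. Of these Gata2 held 7, against 0.708 expected, and Kit 3, against 3.07 expected. Sites mark where TET2 was called and are not a measure of expression.

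The lists are taken by role, beginning with genes for the AML1-ETO complex and its corepressors. In that list 19 of 23 genes were occupied (82.6%, against 41.6% of all genes), with 66 sites against 35.5 expected and a median of 1 site per gene, where the median over all genes was 0. Beside Runx1, the ETS factors Erg and Fli1 led with 8 and 6 sites. Hdac2, Hdac3, Prmt1 and Tcf3 had none assigned. Along Runx1 the sites ran the length of the gene. From the upstream start printed above, with its site centred 0.022 kb inside, 3 sites lay upstream at -41.4, -48.2 and -54.8 kb, and others followed at 3.77, 24.3, 25, 39.0 and 61.1 kb. The stretch from there to 172 kb was empty, and 5 more sites stood between 172 and 253 kb, past the gene's far end in the last case. The sites at 0.022, 24.3, 61.1, 172, 205 and 253 kb and those at -41.4 and -54.8 kb were shared with the AML list. The locus of Lyl1, a basic helix-loop-helix partner of the complex, had 12 sites within 100 kb of its start, with shared ones at -1.33, 0.197 and 2.36 kb. Tal1 had 7, none shared, and Ldb1 had 8, 1 shared. These counts within 100 kb take in sites assigned to neighbouring genes, and no expected number was worked out for them. By the same count Prmt1 had 7, Hdac3 5 and Tcf3 2, although none was assigned to these genes.

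Every gene in the myeloid transcription factor list was occupied, 27 of 27, with 88 sites against 36.1 expected and a median of 3 per gene. In promoter windows the count was lower, 8 of 19 genes (42.1%, against 21.1% of all genes with a window). Cebpb, which drives granulocyte production under stress, had the most sites. Of its 11 assigned sites 1 lay 1.13 kb upstream of the start and the other 10 lay downstream, from 21.9 to 86.6 kb, in intergenic sequence. Those at 21.9, 35.0, 65.2 and 86.6 kb were shared with the AML list. Counting all sites within 100 kb of the start, whichever gene they were nearest to, Cebpb had 16, Nr4a1 14, Klf2 13, Gfi1 10 and Runx3 9.

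Cebpa, needed for granulocyte commitment, had 7 sites within 100 kb. One lay on its promoter at -0.038 kb and the others at -62.4, -54.2, 7.92, 35.3, 37.5 and 38.3 kb, and those at -62.4, 35.3 and 37.5 kb were shared. Irf8, which directs monocyte and dendritic cell fate, had 6 sites at -68.1, -50.1, -38.5, -34.2, 4.87 and 56.6 kb, and neither of its listed promoter windows was bound. At Gfi1 a site covered the start (-0.220 kb), 5 lay upstream in the body of the neighbouring gene Evi5 and 4 downstream. Spi1, which encodes PU.1, had no listed strand. Its 7 sites lay at -39.5, -11.9, 0.705, 6.87, 14.3, 16.0 and 31.2 kb from its lower-coordinate end, and the first 4 of these were shared. Cebpe and Nfe2, factors of late granulocytes and of megakaryocytes, had 8 and 9 sites within 100 kb, most of them assigned to neighbouring genes.

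Stem and progenitor regulators were occupied in 17 of 25 genes (68.0%), with 74 sites against 44.8 expected. Ikzf2 had 9 sites, none shared, Etv6 had 8 and Gata2 had 7. The Gata2 locus came after Cebpb with 15 sites within 100 kb of the start. The site at the start was 2338 bp wide, and 3 more followed within the gene at 3.01, 5.35 and 9.29 kb, the one at 5.35 kb on the second promoter. None of those 4 was shared with the AML list, while sites at -19.5, -27.6, -76.8 and -87.0 kb were. At Egfl7, which hosts the microRNA gene Mir126a, 14 sites stood within 100 kb and 5 were shared. Ikzf1 had 7, of which 5 were shared. Its unshared sites lay at 1.25 and 35.0 kb.

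**Figure D4:**
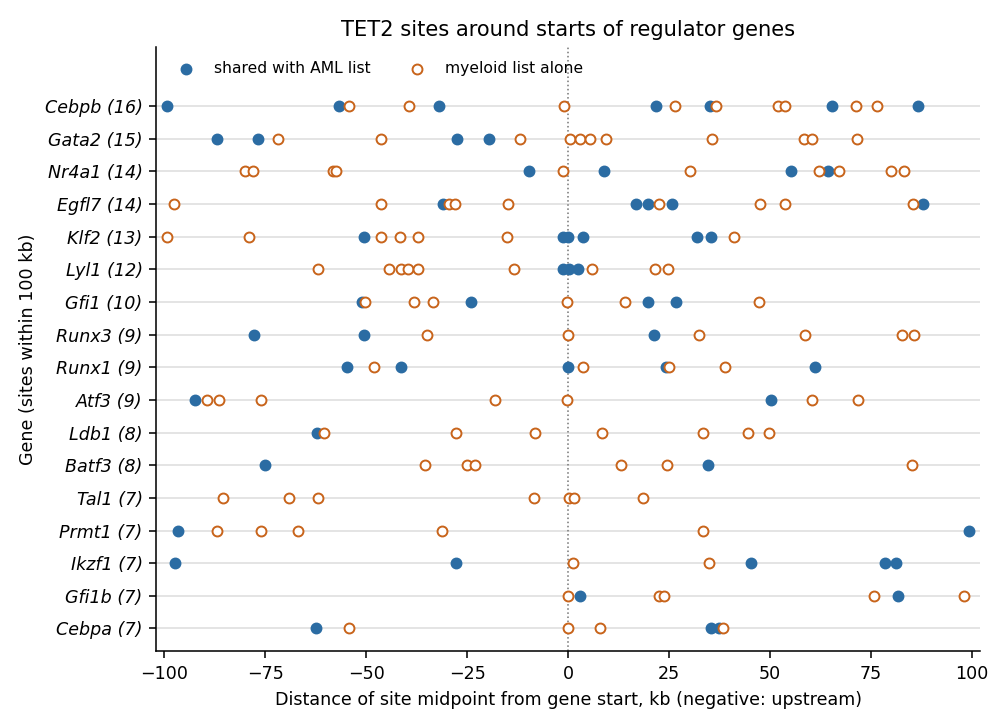
TET2 sites within 100 kb of the start of genes from the AML1-ETO complex, myeloid transcription factor and stem and progenitor lists with a listed strand and at least 7 sites, by distance of the site midpoint in kb (negative upstream); filled blue circles overlap a site of the AML list and open orange circles do not. The number after each gene is its count, from 16 at Cebpb to 7 at Cebpa.

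Tet2, the gene whose product was precipitated, was itself occupied. It had 7 sites against 2.44 expected: at its promoter, at the 3′ end, 3 upstream at -38.1, -40.1 and -78.1 kb, and 2 beyond the 3′ end at 108 and 122 kb from the start. The site at -38.1 kb was the one shared with the AML list.

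Genes of inflammation formed the next groups. The NF-kB pathway, a switch for inflammatory transcription, was occupied in 21 of 25 genes (84.0%), with 51 sites against 19.2 expected. Its leading members were Map3k8, a kinase upstream of ERK, with 8 sites, and the inhibitors Nfkbia (7, of which 5 shared) and Tnfaip3 (7). Chuk, Cyld, Nfkbib and Tbk1 had none. Pattern recognition and inflammasome genes were occupied in 23 of 30, with 59 sites against 19.1 expected. Irak2 held 8 sites, all in gene bodies, Nlrp3 held 5 with 3 at starts, and Tlr2 held 5. In promoter windows this list stood near the share of all genes, at 6 of 26 (23.1% against 21.1%). Interferon response genes were occupied in 10 of 22 (45.5%), close to the share of all genes, and their 26 sites against 10.1 expected included 7 at Irf2 and 4 at Irf1, both transcription factors.

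Genes for cell movement were occupied nearly throughout. In the leukocyte adhesion and migration list 26 of 27 genes (96.3%) had a site, with 88 sites against 22.9 expected and Icam1 the exception. Itgb2, the beta chain of leukocyte integrins, had 8 sites in the body or at the ends of its 35.4 kb gene, and Cd44 and Cd47 had 7 each. The actin cytoskeleton list had 27 of 29 genes occupied (93.1%) and 89 sites against 24.7. Lcp1, the leukocyte actin bundler L-plastin, led with 9 sites, 8 in gene bodies, before Dock8 and Wipf1 with 6 each. Lsp1 had no site, and Pfn1 had 1 at its start that was nearer to another gene. Promoter windows of this list were bound in 15 of 24 genes (62.5%). Rab GTPases steer vesicle traffic, and the list made for them by a symbol rule was occupied in 49 of 65 genes (75.4%). The rule also took in Rab11fip4, which encodes a Rab11-interacting protein and not a GTPase, and which had most sites, 9. Rab31 had 8 and Rab27a, needed for granule release, had 6.

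The granule and neutrophil list had the highest ratio of sites to expected of the 40 lists with members, 6.59. It held 42 sites where 6.38 would be expected, in 18 of 20 genes, with Ncf4, a subunit of the phagocyte NADPH oxidase, at 4 and Camp and Ltf, genes for antimicrobial granule proteins, at 3 each. Elane and Ly6g had none. Lysosome and endosome genes were occupied in 21 of 30, with 43 sites against 13.0, and Ctsd (cathepsin D) had 5, 4 of them shared.

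Glycolysis had the next highest ratio, 4.61, with 61 sites against 13.2 expected in 18 of 21 genes. Hk2, the inducible hexokinase, had 10 sites (4 shared), Pfkfb3, which makes an activator of phosphofructokinase, had 9, and the glucose transporter gene Slc2a3 had 7. Aldoc, Ldhb and Tpi1 had none. The citric acid cycle and 2-oxoglutarate list, which covers the enzymes that make and use the TET cofactor, stood lower: 16 of 26 genes (61.5%), 25 sites against 20.9 expected, a ratio of 1.2, with Sdhb at 4 sites. Sterol and fatty acid genes were occupied in 17 of 21, with Abca1 at 5, Mylip at 4 and Nr1h2 at 3. Acaca, Fasn, Fdft1 and Sqle had none. Iron and oxidative stress genes were occupied in 18 of 23, led by Slc7a11 with 6, Nfe2l2 with 5 and the ferritin gene Fth1 with 4, and Cat, Ftl1, Gpx4, Keap1 and Slc11a2 had none. Promoter windows were bound in 12 of 19 genes of this list (63.2%), the highest share of any list.

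Growth and survival genes followed. The apoptosis and p53 list was occupied in 22 of 24 (91.7%), with 59 sites against 19.1 expected. The pro-apoptotic Bcl2l11 had 8 and Bcl2 5, while Bcl2a1b and Bcl2a1d had none. Cell cycle genes were occupied in 22 of 36 (61.1%). The G1 kinase gene Cdk6 had 7, Ccnd3 6, of which 5 were shared, and Ccnd2 5, of which none was. Chromatin regulators were occupied in 23 of 33, with 56 sites against 35.7 expected. Arid1b, of the SWI/SNF complex, and Eed and Jarid2, of Polycomb repressive complex 2, had 5 each.

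Housekeeping families were bound at many promoters. Ribosomal protein genes were occupied in 44 of 80 (55.0%), with 50 sites in all and at most 2 at any gene, and 31 of 60 windows were bound (51.7%, against 21.1%). Splicing factor genes stood below that by gene, 19 of 40 (47.5%), but had 20 of 36 windows bound (55.6%). A site in a window can be assigned to another gene whose end is nearer, so the counts need not match. Proteasome genes had 25 of 46 occupied and 48.7% of windows bound, translation initiation factors 28 of 53 and 48.8%, mitochondrial ribosomal proteins 37 of 78 and 42.0%, Mediator subunits 20 of 28 and 45.8%, and aminoacyl-tRNA synthetases 11 of 20 and 38.5%. Psma6 and Eif2d had 6 sites each and Dars 7, of which 1, none and none stood at the gene's start. Complex I genes were below the share of all genes, 15 of 47 (31.9%), although 30.0% of their windows were bound.

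Large families differed in how many genes were occupied. Of 388 Zfp genes 151 (38.9%) were occupied, near the share of all genes, with 274 sites against 275 expected, and Zfp217, Zfp608 and Zfp36l2 held 12, 12 and 11 of those. Solute carriers stood at 169 of 362 (46.7%), with Slc38a2, a transporter of neutral amino acids, at 8, and TRIM and RNF genes at 80 of 148 (54.1%), with 144 sites, 1.41 times the number expected. With sites limited to 1 kb from a gene end, where 19.3% of all genes were occupied, solute carriers stood at 18.5% and Zfp genes at 20.6%, so each changed its side of the share of all genes.

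Most lists of genes of other tissues had fewer sites than expected. The T and NK cell list and the erythroid and megakaryocyte list came near the expected number. Olfactory receptors, expressed in nasal neurons, were occupied in 39 of 1104 genes (3.53%), with 45 sites against 314 expected, and 2 of 938 of their promoter windows were bound (0.213%). Vomeronasal receptors stood at 15 of 352 (4.26%), with 21 sites against 234. Keratins had 5 of 109, protocadherins 4 of 67 and defensins 4 of 71, and Krt80 with 4 sites was highest among the keratins. Neuronal genes had 9 sites where 49.6 would be expected, in 6 of 19 genes, and muscle genes 3 against 10.5, in Ryr1 and Mb. B cell genes had 2 against 11.7, in Fcrla and Igll1. The T and NK cell list had 8 of 15 genes occupied (53.3%), with 9 sites against 10.1 expected and none of 13 promoter windows bound. With sites limited to 1 kb from a gene end 1 of the 15 was occupied, 6.67% against 19.3% of all genes. Erythroid and megakaryocyte genes had 8 sites against 8.56, of which Gfi1b held 4. Promoter windows were bound in 3 of 9 of these genes (33.3%, against 21.1% of all genes with a window). Over the 40 lists with members, 29 had a higher share of occupied genes than all protein-coding genes together.

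**Figure D5:**
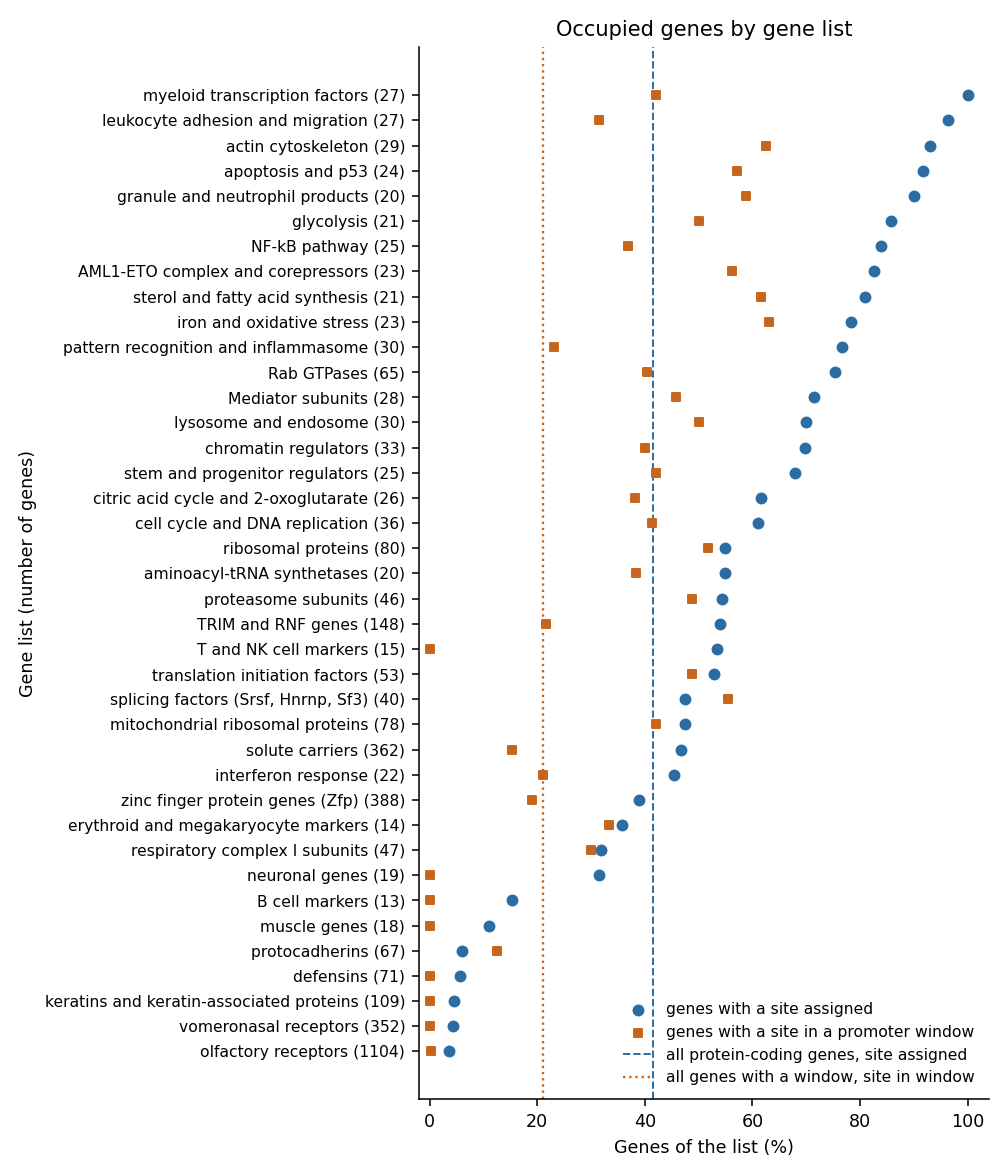
Percent of each list's genes (horizontal axis) with at least 1 TET2 site assigned (blue circles) and percent with a promoter window that holds a site (orange squares, of genes with a listed window), for 39 of the lists with the number of genes of each; vertical lines give the same shares over all genes, 41.6% and 21.1%. Myeloid transcription factors stand at 100% by assigned sites, and olfactory receptors at 3.53%.

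Sites often stood in groups. With sites joined across gaps of up to 12500 bp, 4737 sites (25.6%, 24.9 to 26.2) lay in 1285 clusters of 3 or more, 214 of which held 5 or more, and 9142 sites (49.3%) stood alone. The median gap between neighbours was 30.0 kb. Sites at 3′ ends were clustered in 32.7%, those in gene bodies in 27.2%, those between genes in 26.6% and those at gene starts in 21.0%. Shared sites were in clusters more often than sites of the myeloid list alone, 29.2% against 24.3% (odds ratio 1.29, 1.19 to 1.38, two-sided Fisher's exact adjusted p = 2.92e-11).

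The 8 largest clusters were at genes of several kinds. A cluster of 12 sites, 6 of them shared, spanned 62.4 kb near Thbs1 (chromosome 2, 117951279 to 118013704), the gene of the adhesive glycoprotein thrombospondin, and touched no protein-coding gene. Another 12 spanned 71.3 kb over Mapkapk3, Cish and Hemk1 on chromosome 9 (107263708 to 107334959), where Cish is a STAT5-induced inhibitor of cytokine signalling. A cluster of 11 covered Fbxo48 and Plek on chromosome 11, and Plek encodes pleckstrin, a protein kinase C substrate of blood cells. The chemokine genes Ccl6, Ccl3 and Ccl4 shared 11 sites over 71.3 kb elsewhere on chromosome 11 (83592788 to 83664076). Cryba4, Crybb1 and Tpst2 on chromosome 5 had 11, Itgb2 on chromosome 10 had 10 within 36.5 kb, and Orai2, Prkrip1 and Sh2b2 on chromosome 5 and Gm46963 on chromosome 6 had 10 each.

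Site density varied among chromosomes. It was 7.71 per Mb over all 19 chromosomes and ran from 5.75 on chromosome 18 to 12 on chromosome 11. Per 100 protein-coding genes it ran from 60.8 on chromosome 7 to 113 on chromosome 12. The share of genes occupied was lowest on chromosome 7, at 32.5%, and highest on chromosome 19, at 46.8%. The share of sites that overlapped the AML list was between 24.4% and 31.1% on every one of the 19.

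The 5 longest stretches without a site held few genes, and genes of neurons and lymphocytes were among them. The longest, 7.29 Mb on chromosome 2 (94438520 to 101732583), spans Rag1 and Rag2, which carry out antigen receptor recombination in lymphocytes, with Lrrc4c, Iftap and Traf6. Next came 6.24 Mb on chromosome 15 with Drosha and the cadherin genes Cdh6 and Cdh9, 6.08 Mb on chromosome 14 with Pcdh20, 5.94 Mb on chromosome 6 with Ctnna2, Lrrtm1 and Reg genes, and 5.58 Mb on chromosome 14 with Slitrk5 and Slitrk6. Whether reads can be placed throughout these stretches was not tested.

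MicroRNA genes of blood cells were looked up by hairpin. Of 32 listed, 29 were matched in RefSeq, and 14 had a site within 10 kb, against 290 of all 919 hairpins on these chromosomes (31.6%). The mature forms of those nearest to sites are given here, with the seed (bases 2 to 8, with which a microRNA pairs to its targets) in capitals.
mmu-miR-24-3p: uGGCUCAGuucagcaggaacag
mmu-miR-27a-3p: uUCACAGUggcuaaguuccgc
mmu-miR-23a-3p: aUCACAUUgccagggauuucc
mmu-miR-146b-5p: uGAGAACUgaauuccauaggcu
mmu-miR-22-3p: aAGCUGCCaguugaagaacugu
mmu-miR-142a-3p: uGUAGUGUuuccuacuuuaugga
mmu-miR-29b-3p: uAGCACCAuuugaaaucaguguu
mmu-miR-29a-3p: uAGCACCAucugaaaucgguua
mmu-miR-21a-5p: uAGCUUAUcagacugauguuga
mmu-miR-126a-3p: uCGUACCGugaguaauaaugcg
The Mir23a, Mir27a and Mir24-2 hairpins lie next to each other on chromosome 8 (84208518 to 84208921). The Mir24-2 hairpin touched a site, Mir27a was 67 bp before that site and Mir23a 153 bp past another site on its other side. In all, 4 sites stood within 10 kb of each hairpin. Their seeds differ from one another. Mir29b-1 and Mir29a, which share the seed AGCACCA, lie together on chromosome 6 at 2.12 and 2.46 kb from 1 site.

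Some single microRNA genes of myeloid cells had several sites close by, and others had none within 10 kb. Mir142, expressed throughout the blood lineages, was 1.78 kb from the nearest and had 4 within 10 kb. Mir21a was at 2.32 kb, also with 4. Mir146b, a brake on NF-kB signalling, was at 1.39 kb with 3, Mir22 at 1.78 kb with 2, and Mir126a in the Egfl7 gene at 6.2 kb with 2. Mir193a, Mir125a, Mir34a and Mirlet7e lay between 6.92 and 7.58 kb away. Among the matched hairpins with no site within 10 kb, Mir146 was 10.8 kb and Mir130a 13.1 kb from the nearest site. Mir155, induced in inflammation, was at 14.8 kb, and Mir17, of a cluster that drives proliferation, at 1099 kb.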

How the data were processed

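The authors deposited 2 lists of TET2 sites, 1 per culture, with chromosome, start and end and no further value. Trimmomatic, Bowtie2, MACS2 and mm10 are named in the submitters' processing notes; their versions and thresholds, whether libraries were pooled, and the use of input, IgG and knockout libraries were not stated there, and a start may be off by 1 bp. Per the labels' protocols, precipitations used antibody and chromatin as stated above.

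Rows were merged and placed with Python 3.11.15, pandas 2.3.3, numpy 2.4.6 and scipy 1.17.1 on RefSeq genes and promoter windows (GRCm38.p6). The classes were ranked: gene start, gene end, end of a gene with no listed strand, gene body, intergenic. Territory is sequence nearer to a gene's ends than to any other gene's, within 100 kb. Fisher's exact tests were two-sided with Benjamini-Hochberg adjustment, and the placing and tests were checked on simulated sites. An adjusted p under 0.05 was called.

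The sites, 41 gene lists and tests were chosen with earlier results of these data known. Of 546 named list entries 5 were not matched (Mx1, Mx2, Gata1, Alas2 and Syn1), and a symbol rule for clustered histone genes found none. Genes were named by rule: the 10 with most sites, the 10 with the highest ratio among those with at least 5, the 3 members of each list with most sites, members without a site where 5 or fewer, the 8 largest clusters, the 5 widest sites, the 5 longest gaps and Tet2. Some genes and 1 list that these rules give are not reported here. Other genes named were chosen after their values were seen. Figures were drawn with matplotlib 3.10.9.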

Additional observations from a re-analysis of the deposited data

How the results depend on the processing

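Placement depended on its definition. The share of sites at gene starts was 17.86% with 0.5 kb, 23.45% with 2 kb, 22.59% with all annotated genes and 21.64% when any base of the site counted. In the same order the share at 3′ ends was 0.8148%, 2.746%, 2.487% and 1.996%, the share in gene bodies 41.23%, 35.68%, 42.77% and 37.61%, and the intergenic share 36.8%, 33.47%, 26.35% and 34.66%. With a limit of 1 kb from site to gene end, 3985 genes were occupied. The share overlapping the AML list was 26.9% when midpoints within 1 kb counted. Clusters held 9.335% of sites with gaps of 5 kb and 45.59% with 25 kb. The ETS letters were in 27.44% of bound windows, and in 30.2% when the whole window had to be inside a site. At 3′ ends the odds ratio for shared sites turned from 0.931 to 1.134 with 2 kb (Fisher's exact adjusted p = 2.20e-01). The cause of these shifts was not tested beyond the change of definition itself. Of the 40 lists, 29 stood above the share of all genes with a limit of 20 kb and with sites within 1 kb of an end too, although under the latter 4 lists changed side (T and NK cell genes and solute carriers fell below, erythroid and megakaryocyte genes and Zfp genes came above) and 34 had a count of occupied genes more than 1.5 times lower. With 1 site kept per cluster, an alternative chosen after seeing the data, the gene start odds ratio was 0.258. No paired analysis was possible because the lists hold no value per library, and leaving out a replicate or comparing wild-type with knockout cells was not run for the same reason. Depth is unknown, so a gene without a site was not called at this depth and need not lack TET2. A gene can also lack an assigned site because each site went only to the gene with the nearest end, as at Pfn1.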
